A study of Homo sapiens with 14 samples.

Results

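DU-145 is an established human prostate cancer cell line, and DU-145 (PDGFRα) is the same line made to overexpress PDGFRα, a receptor for platelet-derived growth factor (PDGF) that the gene PDGFRA encodes. The comparison described here sets the 2 arrays of DU-145 (PDGFRα) against the 2 arrays of unmodified DU-145, 4 of the 14 arrays of the series, across 18372 genes. The arrays were chosen by their titles alone. The other 10 arrays belong to 5 lines of PC3 background (PC3-ML, PC3-N, PC3-N(PDGFRα) and 2 clones of PC3-ML), and they entered the fit to give the spread between arrays of a line. Per the labels, both DU-145 lines were non-bone metastatic and were cultured in serum-containing DMEM with gentamicin, and no added ligand is named. The promoter driving the receptor, whether the line is 1 clone or a pool, and whether the parent carried an empty vector are not given in the sources used here. A difference between the lines therefore cannot be told apart from an effect of vector, selection or clonal origin. Per the series design the 2 arrays of a line came from different passages. The p values below therefore weigh a change against variation from passage to passage, pooled over the 7 lines. They do not weigh it against variation between independently made lines.

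PDGFRα is a receptor tyrosine kinase that dimerises when it binds PDGF ligands. The active receptor recruits adaptors and enzymes that pass the signal to RAS and the MAP kinases, to phosphoinositide 3-kinase and AKT, to phospholipase C gamma and to STAT proteins. Immediate early genes and feedback inhibitors of the MAP kinase pathway are among the genes that follow acute stimulation. The receptor is typical of mesenchymal cells, and epithelial cells usually have little of it. In prostate cancer it has been studied for its part in the growth of tumour cells in bone.

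Across genes, DU-145 replicate 1 stood apart from the other 3 arrays. It correlated with DU-145 replicate 2 at r = 0.9891, whereas replicate 2 correlated with the DU-145 (PDGFRα) arrays at 0.9905 and 0.9897 (18372 genes of 1 array each, which are not independent replicates). The root mean square difference between passages was 0.209 on the log2 scale in DU-145, the widest of the 7 lines, and 0.184 in DU-145 (PDGFRα). The other lines lay between 0.133 and 0.175. Across genes the spread pooled over the 7 lines was therefore narrower than that of either DU-145 line. The p values can thus understate passage variation in DU-145. The epithelial markers EPCAM and KRT8 were at intensities of 1093 to 1679 and 539 to 791 in the 4 arrays. CDH1, also an epithelial marker, was at 250 and 81.8 in DU-145 and at 43.6 and 63.3 in DU-145 (PDGFRα). KRT5 (24.1 to 25.96) and KLK3 (25.0 to 28.8) lay near the lower end of the scale, where intensities are compressed; 55.1% of the genes had a mean under 40 in these arrays. CTNNA1, which PC3 cells have lost, was at 138 to 282 in the DU-145 arrays and at 23.1 to 24.01 in the means of the PC3 lines. None of 10 fibroblast markers and none of 10 leukocyte and endothelial markers measured was called by limma at an adjusted p under 0.05, and 1 of each 10 had an unadjusted p under 0.05. These were PDPN, at 33.1 and 38.9 in DU-145 and 44.7 and 55.5 in DU-145 (PDGFRα), and CD68, at 142 and 123 against 93.3 and 116. The 6 epithelial and prostate line markers measured had a median log2 change of −0.27, with none called. Of them 2 were lower and none higher at an unadjusted p under 0.05 (33.3% lower, against 7.82% of all genes).

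PDGFRA itself had RMA intensities of 28.2 and 25.5 in DU-145 and of 129.6 and 92.2 in DU-145 (PDGFRα). Both arrays of the overexpressing line lay above both arrays of the parent, which sat near the lower end of the scale. The means were 26.9 ± 1.92 and 110.9 ± 26.4 (SD, n = 2 passages each). The rise was 2.03 on the log2 scale (SE 0.19, limma adjusted p = 0.0045), or 4.07-fold, a low estimate because the parent's level is compressed. The mean of unmodified PC3-N was 106.4 ± 4.32 (SD, n = 2) and lay inside the range of the DU-145 (PDGFRα) arrays. In bulk RNA, more cells with the transcript and more transcript per cell cannot be told apart.

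The other PDGF genes were not called. PDGFRB, the sister receptor, was at 25.6 and 25.5 in DU-145 and at 25.8 and 28.0 in DU-145 (PDGFRα). Among the ligands, PDGFC had 54.3 and 57.8 in the parent against 51.3 and 50.3, a log2 change of −0.14 (SE 0.11, limma adjusted p = 0.63). PDGFA ran from 31.6 to 36.5, PDGFB from 25.97 to 29.6 and PDGFD from 22.3 to 24.4 over the 4 arrays, with the lines overlapping for each. Of the 7 ligands, receptors and receptor-like genes measured, PDGFRA alone had an unadjusted p under 0.05.

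The limma fit called 57 of 18372 genes at an adjusted p under 0.05 (0.31%). Of these, 12 were higher in DU-145 (PDGFRα) (0.0653%) and 45 were lower (0.245%). The arrays of the lines did not overlap for any of the 57, but neither did they for 18.9% of all genes in the upward and 18.5% in the downward direction. Most changes were small: falls ran from −0.29 to −1.55 on the log2 scale with a median of −0.62, rises started at 0.35 with a median of 0.53, and 6 called genes reached 2-fold (0.0327%). The genes that fell had a median parent level of 125 and those that rose one of 49.9, against 36.2 over all genes. For 48 of the 57 the adjusted p lay between 0.03 and 0.05. DU-145 replicate 1 was the highest of the 4 arrays in 36 of the 45 falls. Without it, 20 genes were called, among them 12 of the 57, and the other 45 of the 57 had adjusted p values of 0.056 to 0.18. Without DU-145 replicate 2 there were 418 calls. Without DU-145 (PDGFRα) replicate 1 or replicate 2 there were 31 and 15, with 16 and 9 of them higher. All 57 kept their direction in each of these fits, and 7 kept their call in all of them: PDGFRA, the small nucleolar genes SNORD13P1 and SNORD79, TGFBI, CCDC88C, MARK1 and FHOD3. Leaving out 1 array could not reverse the direction of any of the 57, because their arrays did not overlap. A limma fit of the 4 DU-145 arrays alone took its spread from these arrays and left 2 residual degrees of freedom. It called 0 genes, and 1511 (8.22%) had an unadjusted p under 0.05.

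**Figure D1:**
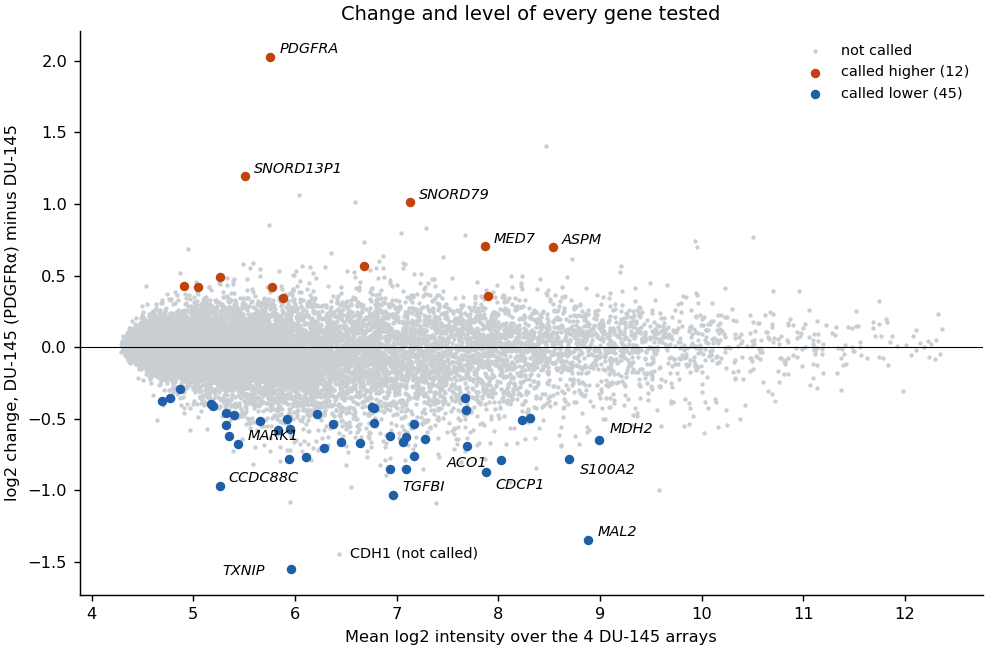
Log2 change in DU-145 (PDGFRα) against DU-145 (vertical axis, log2 units) plotted for each of 18372 genes against its mean log2 intensity over the 4 arrays (horizontal axis), with the 57 called genes in colour. The 45 called falls outnumber the 12 called rises, and PDGFRA, at 2.03, is the highest called point.

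CCDC88C had the smallest p of the comparison. It encodes a protein that binds Dishevelled and G protein alpha subunits and acts in Wnt signalling. Its intensity was 54.2 and 53.1 in DU-145 and 28.4 and 26.6 in DU-145 (PDGFRα), so that the passages of each line nearly coincided and the lines were well apart. The means were 53.7 ± 0.811 and 27.5 ± 1.29 (SD, n = 2), and the gene fell by 0.97 on the log2 scale (SE 0.06, limma adjusted p = 0.00035). CCDC88C was the 1 called gene with a second probe set. That probe set had a log2 change of −0.37 (SE 0.18, adjusted p = 0.428), in the same direction but not called.

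TGFBI, a secreted matrix protein that is induced by TGF-beta and binds integrins, was at 186 and 171 in DU-145 and at 80.2 and 95.4 in DU-145 (PDGFRα). The change was −1.03 (SE 0.08, adjusted p = 0.0021). MARK1, a kinase that phosphorylates microtubule-associated proteins, had 58.7 and 51.4 against 33.0 and 35.9 (log2 change −0.67, SE 0.07, adjusted p = 0.0064). Both falls were wider than the gap between passages in either line. FHOD3, a formin that assembles actin filaments, had passages close together, with 168 and 170.4 in the parent and 109.6 and 110.1 in the overexpressing line. It fell by 0.62 (SE 0.06, adjusted p = 0.0064).

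The 2 small nucleolar genes were the largest called rises after PDGFRA. SNORD13P1, annotated as a pseudogene, is a copy related to the U13 small nucleolar RNA. It had 32.5 and 28.1 in DU-145 and 78.0 and 61.0 in DU-145 (PDGFRα), a rise of 1.19 (SE 0.11, limma adjusted p = 0.0045). SNORD79, a box C/D small nucleolar RNA of the kind that guides methylation of ribosomal RNA, had 96.2 and 101 against 213 and 186, a rise of 1.01 (SE 0.10, adjusted p = 0.0051). For both, the overexpressing arrays lay above both parent arrays by more than the passages of either line differed.

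**Figure D2:**
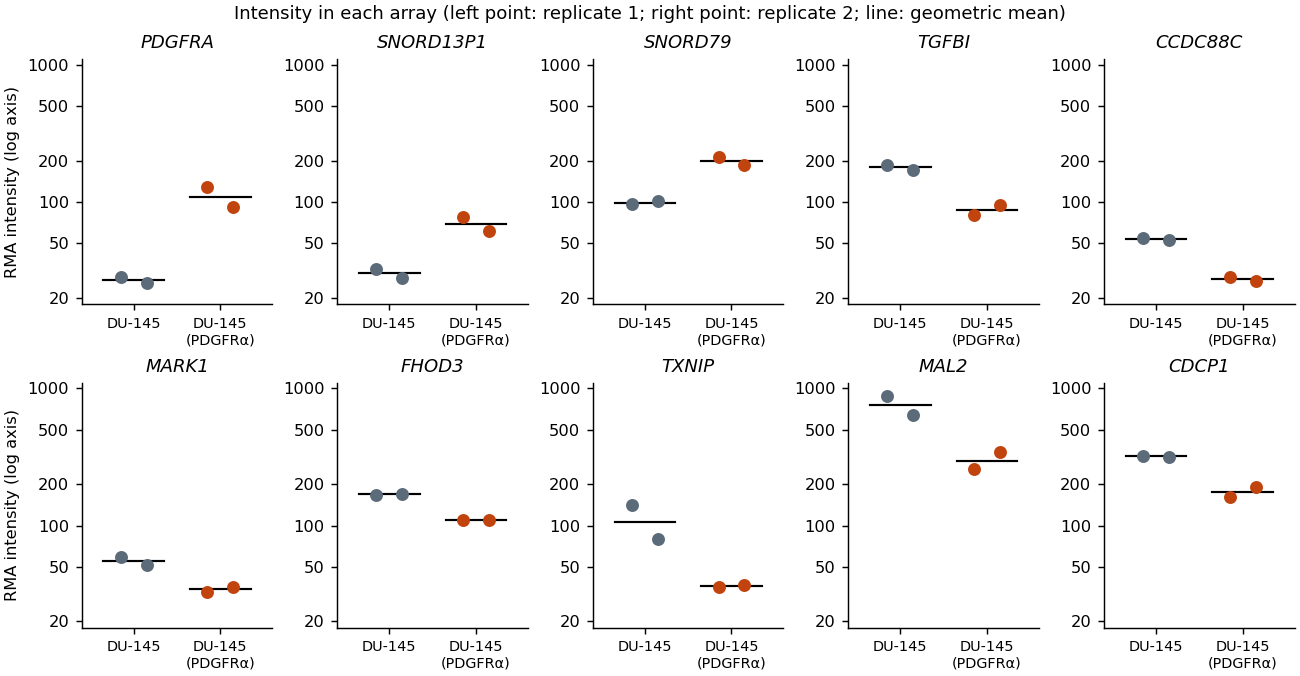
RMA intensity (log axis) in each of the 4 arrays for the 7 genes called in all 4 fits that left out an array and for TXNIP, MAL2 and CDCP1. Points are arrays (grey for DU-145, red for DU-145 (PDGFRα), replicate 1 left of replicate 2) and lines are geometric means; the 2 cell lines do not overlap for any gene shown, and the parent's passages are farthest apart for TXNIP (142 and 80.5).

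Beyond TGFBI and CCDC88C, 9 of the called genes acted at the cell surface or in signalling, by a grouping of the called genes by role that was made after their values were seen. In all, 10 of these 11 genes fell, as did 45 of the 57 called genes as a whole. MAL2, a membrane protein of transport to the apical surface of epithelial cells, had the second largest fall of all called genes, from 886.0 and 641 in DU-145 to 257 and 344 in DU-145 (PDGFRα). The log2 change was −1.34 (SE 0.20, limma adjusted p = 0.04), and without DU-145 replicate 1 the adjusted p was 0.14. CDCP1, a transmembrane glycoprotein that SRC family kinases phosphorylate, was at 324 and 315 in the parent and at 160.4 and 189.6 in the overexpressing line, a change of −0.87 (SE 0.12, adjusted p = 0.04; 0.12 without DU-145 replicate 1). S100A2, a calcium-binding protein of epithelial cells, had 548 and 539 against 329 and 304, a change of −0.78 (SE 0.08, adjusted p = 0.0064). It kept its call without either DU-145 array and missed it without DU-145 (PDGFRα) replicate 2, at 0.057.

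Smaller falls were those of IGFBP4, a binding protein of insulin-like growth factors (−0.67), and VLDLR, a lipoprotein and reelin receptor (−0.64). HRAS, the small GTPase downstream of receptor tyrosine kinases, fell by 0.43, from 119 and 135 to 93.3 and 95.6. LPAR1, a receptor for lysophosphatidic acid, fell by 0.42 and GNA15, a G protein alpha subunit, by 0.41. The 1 rise in this group was PPIP5K2, an enzyme of inositol pyrophosphate synthesis, from 88.0 and 80.4 to 135 and 115 (0.57). HRAS kept its call without DU-145 replicate 1 (adjusted p = 0.036) and lost it without either DU-145 (PDGFRα) array (0.089 and 0.11), with quantile normalization (0.094) and with a trended robust spread (0.10). The others of this paragraph lost theirs without DU-145 replicate 1.

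By the same grouping, 12 called genes encoded proteins of metabolism and mitochondria. All 12 were lower in DU-145 (PDGFRα), as were 45 of the 57 called genes as a whole, and no share over all metabolic genes stands behind this group. TXNIP, a thioredoxin-binding alpha-arrestin that limits glucose uptake and whose transcription follows glucose-derived metabolites, had the largest fall of the comparison. It was at 142 and 80.5 in DU-145 and at 35.8 and 37.1 in DU-145 (PDGFRα). The parent's passages differed by far more than those of the overexpressing line, which lay close to the lower end of the scale, yet the lines did not overlap. The means were 111 ± 43.2 and 36.5 ± 0.934 (SD, n = 2), and the log2 change was −1.55 (SE 0.20, limma adjusted p = 0.03). The call held without DU-145 replicate 1 (0.012) and did not without either DU-145 (PDGFRα) array (0.068 and 0.088).

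TXNIP transcription is known to depend on the glucose-responsive factor MondoA and its relative ChREBP, which bind a carbohydrate-response element made of an E-box-like motif in a pair. The RefSeq promoter of TXNIP (GRCh38.p14, chr1:145996530-145996829, minus strand, from 250 bases before to 50 bases after the annotated start) is shown because TXNIP carries the largest fall. The capitals mark, at bases 163 to 179 of the window and written 5′ to 3′, 2 copies of CACGNG with 5 bases of any kind between them (N is any base).
TXNIP promoter: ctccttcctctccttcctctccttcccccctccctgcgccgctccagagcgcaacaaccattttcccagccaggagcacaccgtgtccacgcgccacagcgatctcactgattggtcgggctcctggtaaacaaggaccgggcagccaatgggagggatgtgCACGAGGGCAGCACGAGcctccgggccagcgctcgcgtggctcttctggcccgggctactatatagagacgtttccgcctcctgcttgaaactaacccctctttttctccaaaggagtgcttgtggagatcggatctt
This paired pattern was searched on both strands after the TXNIP sequence had been read. It occurred in 18 of 14207 promoters of tested genes (0.127%) and in 1 of the 42 called genes with a promoter entry, TXNIP. The plain E-box CACGTG, searched on both strands too, is itself 1 form of CACGNG, so matches of the patterns can overlap. It was in 5 of the 42 (11.9%), namely ALDH18A1, COX14, MRPL37, PARP6 and SLC7A5, and in 8.88% of the 14207. A match is a description of the sequence and no evidence of binding.

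The other genes of the TXNIP list were not called. ARRDC4, an alpha-arrestin also known as a MondoA target, was near the lower end of the scale in all 4 arrays (28.2 and 26.1 against 26.7 and 28.6). Of the 8 genes in the list of TXNIP, alpha-arrestins and MondoA factors, 1 was called, TXNIP, for which the list is named. The median log2 change was 0.05, against 0.00 over all genes.

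The metabolic falls included 4 enzymes of intermediary metabolism. ACO1, the cytosolic aconitase that also serves as an iron regulatory protein, was at 356 and 329 in DU-145 and at 201 and 196 in DU-145 (PDGFRα) (log2 change −0.79). IDH3B, a subunit of the isocitrate dehydrogenase of the citric acid cycle, went from 175 and 162 to 107 in both arrays (−0.66), and MDH2, the malate dehydrogenase of the same cycle, from 687 and 589 to 403 and 408 (−0.65). ALDH18A1, the first enzyme of proline synthesis from glutamate, had 99.0 and 82.6 against 55.8 and 50.5 (−0.77). For these 4, DU-145 replicate 1 was the highest array, and without it their adjusted p values were 0.13 to 0.18. In the iron list, TFRC, the transferrin receptor that iron regulatory proteins stabilise at the transcript level, had 779 in both parent arrays and 503 and 619 in the overexpressing line (−0.48, SE 0.11, adjusted p = 0.10), not called. Of the 10 iron genes measured, 3 were lower, ACO1 included, and 1 was higher at an unadjusted p under 0.05. These are 30% and 10% of the list, against 7.82% and 5.17% of all genes, and the median was −0.07. The higher gene was FBXL5, at 164 and 129 against 182 in both arrays (0.32, limma adjusted p = 0.38).

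MRPL37, a protein of the mitochondrial ribosome, fell by 0.85, from 177 and 154 to 104 and 80.4. It was the 1 called gene of 74 mitochondrial ribosomal proteins, of which 4 were higher and 11 lower at an unadjusted p under 0.05 (5.41% and 14.9% of the list, against 5.17% and 7.82% of all genes), with a median of −0.08. COX14, an assembly factor of cytochrome c oxidase, fell by 0.35, and SLC7A5, the exchanger that brings leucine into the cell, by 0.47. The guanylate kinase GUK1 (−0.66), the repair enzyme NAXE (−0.62), the phosphohydrolase HDDC3 (−0.50) and the lactonase PON3 (−0.29) completed the group. Without DU-145 replicate 1 the adjusted p of these 7 genes was 0.14 to 0.17. None of the 12 metabolic calls held in all 4 fits that left out an array.

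A further 7 called genes were placed with the lysosome and the secretory pathway after their values were seen, and these were lower, like most of the calls. RRAGD is one of the Rag GTPases that dock the growth-regulating kinase complex mTORC1 on the lysosome, and its gene is a known target of the TFEB family. It had 91.2 and 71.5 in DU-145 against 50.5 and 43.9 in DU-145 (PDGFRα) (log2 change −0.78, SE 0.13, limma adjusted p = 0.044). HEXA, a subunit of the lysosomal beta-hexosaminidase, had 76.4 and 63.3 against 44.4 and 49.0 (−0.58), and CTNS, the lysosomal cystine exporter, had 63.4 and 57.3 against 44.8 and 39.6 (−0.52). The parent's first passage was the higher of its pair for each, and none of them was called without it (0.15, 0.087 and 0.16).

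TRAPPC3, of a vesicle tethering complex (−0.54), RER1, a retrieval receptor of the Golgi (−0.51), PGAP2, which remodels lipid anchors of surface proteins (−0.62), and ATL1, which shapes the endoplasmic reticulum (−0.40), made up the rest, with adjusted p values of 0.13 to 0.18 without DU-145 replicate 1. Of 19 measured Rag GTPase and TFEB lysosome genes, 2 were called, 7 were lower and 1 higher at an unadjusted p under 0.05 (7.82% and 5.17% over all genes). The median was −0.01. SQSTM1, an autophagy receptor, had a log2 change of −0.26 (adjusted p = 0.12) and the lysosomal membrane protein LAMP1 one of −0.39 (0.16).

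Among called genes of the nucleus, by the same grouping, 5 fell and 1 rose, and 45 of all 57 calls were falls. PRMT5, an arginine methyltransferase of histones and splicing proteins, was at 243 and 285 in DU-145 and 177 and 149.8 in DU-145 (PDGFRα) (−0.69), and here the parent's second passage was the higher. PARP6, an ADP-ribosyltransferase, fell from 203 and 173 to 128 and 95.8 (−0.76). CHAF1B, a subunit of the chromatin assembly factor of replicating DNA (−0.53), TFDP1, the partner of E2F factors (−0.44), and the nuclear receptor PPARD (−0.57) were the others. MED7, a subunit of the Mediator complex that links transcription factors to RNA polymerase II, rose from 175 and 193 to 275 and 324 (0.70, SE 0.11, limma adjusted p = 0.04). It was the 1 called gene of 27 Mediator genes. At an unadjusted p under 0.05, 4 of them were higher, MED7 included, and 4 lower (14.8% of the list each, against 5.17% and 7.82% of all genes). The list was chosen with earlier results of these data known, so a called member in it is no result. Without DU-145 replicate 1 the 6 nuclear genes had adjusted p values from 0.073 (PRMT5) to 0.17 (PARP6), with MED7 at 0.15. A further 5 zinc finger genes, ZFP28, ZKSCAN8, ZNF738, ZFP3 and ZNF404, fell by 0.36 to 0.54 on the log2 scale, and without that array ZNF738 kept its call (0.036) and the other 4 did not (0.073 to 0.18).

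The remaining called genes had no common role. CT83, a cancer-testis antigen, fell from 208 and 161 to 101 and 102 (−0.85, SE 0.10, limma adjusted p = 0.021). C6orf89 fell by 0.70, FKBP4, a co-chaperone of HSP90, by 0.50, and TMEM63A, a mechanically gated channel, by 0.46. Among the rises, ASPM, which organises spindle poles, went from 307 and 277 to 476 and 469 (0.70, SE 0.10, adjusted p = 0.04; 0.073 without DU-145 replicate 1). CASP6, an executioner caspase, rose from 52.0 and 52.6 to 66.4 and 66.5, and OBI1, a ubiquitin ligase of replication origins, from 205 and 219 to 264 and 278, each by 0.35. GLTPD2 (0.49), LKAAEAR1 (0.42), the pseudogene LCMT1P1 (0.42) and 1 locus without a gene name were the other rises. Without DU-145 replicate 1, CT83 kept its call (0.025), CASP6 was at 0.14, OBI1 at 0.14, and the other genes of this paragraph missed the threshold too.

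Genes that act directly downstream of the receptor were next examined as lists. Of 23 signalling proteins close to the receptor, HRAS was the 1 called, 6 were lower and none was higher at an unadjusted p under 0.05 (7.82% and 5.17% over all genes), and the median log2 change was −0.08. The adaptor GRB2 was at 231 and 174 in DU-145 and at 151 and 148 in DU-145 (PDGFRα) (−0.42, SE 0.12, adjusted p = 0.17). PTPN11, the phosphatase SHP2, had a change of −0.25 (0.19), the transcription factor STAT3 one of −0.44 (0.19) and the kinase MAP2K1 one of −0.38 (0.25). Without DU-145 replicate 1, 1 of the 23 was lower at an unadjusted p under 0.05.

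Output and feedback genes of the MAP kinase pathway had no called member among 16 in the limma fit, and their median was −0.00. At an unadjusted p under 0.05, 2 were lower (12.5%, against 7.82% of all genes) and none was higher (5.17% of all genes). ETV5, an ETS factor, had 153 and 134 against 117 and 121 (−0.27, SE 0.08, adjusted p = 0.20), and SPRY1, a feedback inhibitor, had 66.7 and 70.2 against 54.4 and 45.3 (−0.46, SE 0.18, adjusted p = 0.31). SPRED2 had a change of −0.30 and CCND1, cyclin D1, one of −0.21. The 17 immediate early genes measured likewise had none called and 1 with an unadjusted p under 0.05, IER2, at 35.4 and 36.8 against 25.7 and 32.7. FOS lay at 27.9 to 33.3 over the 4 arrays, near the lower end of the scale, where a change would be compressed.

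The cell cycle lists lay on opposite sides of 0. Of 25 mitotic genes, ASPM was called, 11 had an unadjusted p under 0.05 and a higher level in DU-145 (PDGFRα), none was lower at that threshold, and 19 were above 0. The 11 are 44.0% of the list, against 5.17% of all genes. The median log2 change was 0.17. CCNB1, cyclin B1, was at 715 and 682 in DU-145 and at 912 and 972 in DU-145 (PDGFRα) (0.43, SE 0.08, limma adjusted p = 0.059). The mitotic kinase AURKA had 401 and 406 against 471 and 468 (0.22, adjusted p = 0.11), BUB1B a change of 0.39 (0.14) and CENPE one of 0.41 (0.15). The list's median lay between 0.08 and 0.23 when an array was left out, lowest without DU-145 (PDGFRα) replicate 2.

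Of 18 genes of DNA replication, none was called by limma, 8 were lower and none was higher at an unadjusted p under 0.05, and 16 were below 0. The 8 are 44.4% of the list, against 7.82% of all genes. The median was −0.23, and it ran from −0.30 to −0.18 when an array was left out. CCNE1, cyclin E1, was at 63.4 and 84.9 in the parent and at 42.5 and 48.4 in the overexpressing line (−0.69, SE 0.13, adjusted p = 0.070), and without DU-145 replicate 1 it was called (−0.90, 0.036). CCNE2 had a change of −0.38 (0.13), and the helicase subunits MCM5 and MCM4 had changes of −0.64 (0.13) and −0.47 (0.18). In PC3-N, overexpression of the receptor gave a median of 0.12 for the mitotic list and of 0.03 for the replication list. At an unadjusted p under 0.05 in PC3-N, 10 mitotic genes were higher and none lower, with 1 called. Of the replication genes, 2 were higher and 3 lower there. The shares over all genes at that threshold in PC3-N were not determined. Whether the lists' medians differ between the backgrounds was not tested.

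The list of hypoxia-induced and glycolysis genes had a median of −0.42 over 23 genes, of which 20 were below 0. None was called by limma, 8 were lower and none was higher at an unadjusted p under 0.05; the 8 are 34.8% of the list, against 7.82% of all genes. PFKFB3, which makes an activator of glycolysis, was at 68.3 and 69.9 in DU-145 and at 45.1 and 51.6 in DU-145 (PDGFRα) (−0.52, SE 0.10, adjusted p = 0.070). ALDOA, aldolase A, had a change of −0.50 (0.097), P4HA1, a collagen prolyl hydroxylase subunit, one of −0.56 (0.11), and the growth factor VEGFA, at 319.7 and 209 against 181 and 153, one of −0.63 (0.16). The passages of the parent differed in this list: the summed intensity of its genes ran from 5960 to 8195 in DU-145 and from 5215 to 5351 in DU-145 (PDGFRα). Without DU-145 replicate 1 the median was −0.10, closer to 0 than that of the replication list (−0.23), with 4 lower and 1 higher at an unadjusted p under 0.05. Without DU-145 replicate 2 it was −0.60, with 15 lower. The median over all genes stayed between −0.00 and 0.01 in these fits.

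**Figure D3:**
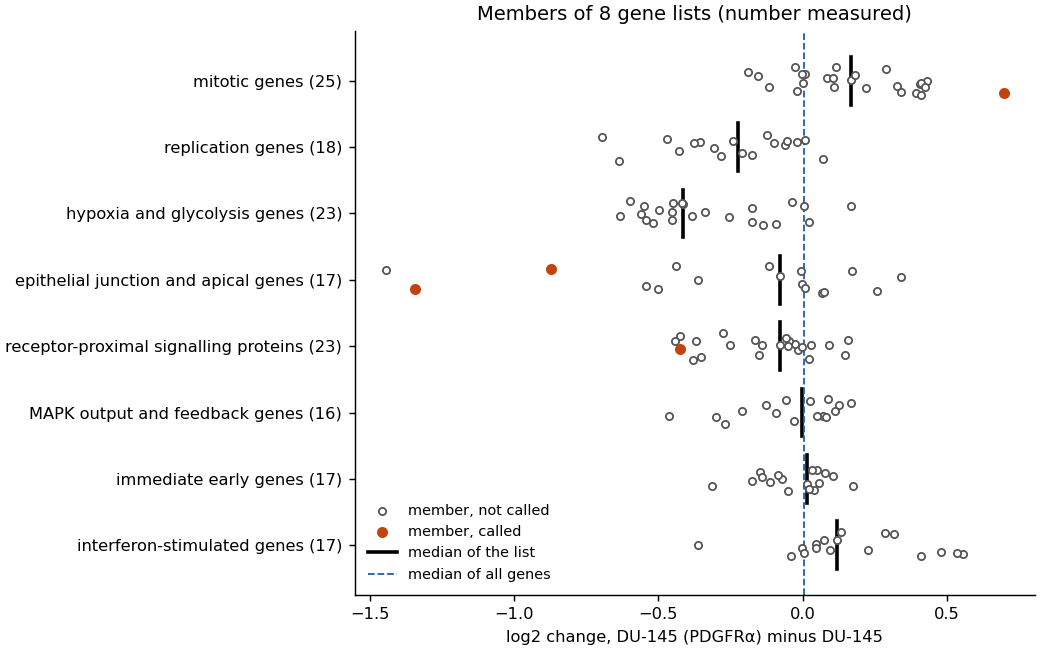
Log2 change in DU-145 (PDGFRα) against DU-145 (horizontal axis, log2 units) of each measured member of 8 gene lists (rows), with called genes filled in red, a black bar at the median of each list and a dashed line at the median of all genes. The mitotic genes lie mostly above 0 (median 0.17), and the replication genes (−0.23) and hypoxia and glycolysis genes (−0.42) lie mostly below.

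Genes of epithelial junctions and the apical membrane included 2 called falls, CDCP1 and MAL2, among 17 measured, and 3 were higher and 6 lower at an unadjusted p under 0.05 (17.6% and 35.3% of the list, against 5.17% and 7.82% of all genes). The 3 higher genes were CRB3, a polarity protein of the apical membrane (37.7 and 41.2 against 48.1 and 46.2, a change of 0.26), the tight junction gene CLDN4 (0.34) and TJP3 (0.17), the last 2 named after their values were seen. EPCAM, an epithelial adhesion molecule, was at 1485 and 1679 in DU-145 and 1093 and 1138 in DU-145 (PDGFRα) (−0.50, SE 0.12, limma adjusted p = 0.13). CDH1, E-cadherin, was at 250 and 81.8 against 43.6 and 63.3. Its log2 change of −1.44 (SE 0.39, adjusted p = 0.16) was past 2-fold but not called, and the parent's passages differed more than its second passage did from the overexpressing line. Without DU-145 replicate 1 the change in CDH1 was −0.64 (adjusted p = 0.26). None of 12 mesenchymal genes was called by limma, and 1, the transcription factor ZEB1, had an unadjusted p under 0.05 (69.1 and 71.3 against 86.3 and 85.6, 0.29, adjusted p = 0.30). Of 11 integrin genes none was called and the median was −0.13. A lower level at an unadjusted p under 0.05 was found for 3 of them (27.3%, against 7.82% of all genes). ITGA2, a collagen receptor subunit, had a change of −0.45 (adjusted p = 0.17).

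TGFBI was the 1 called gene of 16 ligands, receptors and targets of the TGF-beta pathway. At an unadjusted p under 0.05, 2 of the 16 were lower (12.5%, against 7.82% of all genes) and none was higher (5.17% of all genes). CCDC88C was likewise the 1 called of 14 genes of its family and of Wnt feedback, a list that is named for its family. Of the others, 2 were higher at an unadjusted p under 0.05 (14.3% of the list, against 5.17% of all genes). In the S100 list, S100A16 was at 165 and 140 in DU-145 and 96.4 and 76.5 in DU-145 (PDGFRα), a change of −0.82 (SE 0.15, limma adjusted p = 0.068) beside the called fall of S100A2. Of the 17 S100 genes, 1 was higher and 2 lower at an unadjusted p under 0.05 (5.88% and 11.8%, against 5.17% and 7.82% of all genes). The higher one was S100A12 (0.22), near the lower end of the scale. Of 17 amino acid and endoplasmic reticulum stress genes, SLC7A5 and VLDLR were called, both lower, against 0.245% of all genes called lower. At an unadjusted p under 0.05, 3 of these 17 were lower (17.6%, against 7.82%) and none was higher (5.17% of all genes). Their median was −0.06.

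Interferon-stimulated genes differed between the passages of the overexpressing line. The summed intensity of the 17 genes was 848 to 950 in the DU-145 arrays and 796 to 1444 in the DU-145 (PDGFRα) arrays. IFIT3 was at 77.6 and 74.6 in DU-145 and at 75.7 and 160.2 in DU-145 (PDGFRα), and the antiviral GTPase MX1 at 41.4 and 36.8 against 36.7 and 80.8, high in replicate 2 alone for both. None of the 17 was called by limma, 2 were higher at an unadjusted p under 0.05 (11.8%, against 5.17% of all genes), and the median was 0.12. It was 0.28 without DU-145 (PDGFRα) replicate 1 and −0.08 without replicate 2.

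Small nucleolar and Cajal body RNAs numbered 192 on the array under a gene symbol. The pseudogene SNORD13P1 and SNORD79 were the 2 called, both higher. At an unadjusted p under 0.05, 24 were higher and 5 lower (12.5% and 2.60% of the list against 5.17% and 7.82% of all genes). Of the 192, 140 were above 0, with a median of 0.05. SNORD116-14, one of many near-identical copies whose probes can share targets, was at 43.5 and 47.8 in DU-145 and 106 and 85.8 in DU-145 (PDGFRα) (1.07, SE 0.21, limma adjusted p = 0.074). SNORD116-1 had a change of 0.59 (0.078), SNORD116-23 one of 0.37 (0.066) and SCARNA22 one of 0.40 (0.094). In PC3-N the same list had 2 higher and 13 lower at an unadjusted p under 0.05, and a median of −0.01. The shares over all genes at that threshold in PC3-N were not determined, so no reversal is read from these counts. Whether the list differs between the backgrounds was not tested. The host transcripts of these RNAs were not examined.

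The list of interleukin-1 and NF-kB genes, which holds inflammatory cytokines and chemokines, had none called by limma among 19. At an unadjusted p under 0.05, 1 was higher and 2 lower (5.26% and 10.5%, against 5.17% and 7.82% of all genes). IL1B, interleukin-1 beta, was at 27.3 and 29.7 in DU-145 and at 32.1 and 28.2 in DU-145 (PDGFRα), with the lines overlapping near the lower end of the scale. CXCL6, a chemokine for neutrophils, had 24.9 and 29.7 against 30.95 and 27.5, also overlapping. No gene was called by limma in the lists of FOXO targets (15 genes, 1 higher at an unadjusted p under 0.05), cholesterol synthesis (15 genes, 2 higher and 1 lower) or NRF2 redox genes (14 genes, 1 higher and 2 lower). Over all genes, 5.17% were higher and 7.82% lower at that threshold. In the list of caspases and BCL2 family members, CASP6 was the 1 called of 18, and among 7 inositol pyrophosphate enzymes PPIP5K2 was, with NUDT11 at 0.55 (adjusted p = 0.13). These lists too were chosen with earlier results known, so a called member in them is no result.

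The same receptor was overexpressed in PC3-N, and that effect compares no array used in the DU-145 comparison. Both effects were weighed against the same pooled spread of each gene. A gene with a small pooled spread passes more easily in both, so the calls in the backgrounds are not independent. It gave 405 called genes (2.2%). Of the 57 genes called in DU-145, 5 were called in PC3-N too, which is 8.77% of the DU-145 calls and 1.23% of the PC3-N calls. PDGFRA rose in both, by 2.03 in DU-145 and 2.97 in PC3-N, a difference of −0.94 (SE 0.27, limma adjusted p = 0.18) that was not called. CASP6 rose by 0.35 and 0.59 (adjusted p in PC3-N 0.00086) and OBI1 by 0.35 and 0.29 (0.023). CCDC88C and COX14 went in opposite directions: CCDC88C fell by 0.97 in DU-145 and rose by 0.45 in PC3-N (0.0066), and COX14 fell by 0.35 and rose by 0.28 (0.031). Over the 57 genes, 36 had the same sign in PC3-N, 26 of the 45 falls and 10 of the 12 rises, PDGFRA among the latter. The share of same signs over all genes was not determined, so no agreement is read from this count. The 45 falls had a median change of −0.02 in PC3-N and the 12 rises one of 0.09.

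The difference between the effects was tested in the same model and was called for 98 of all genes (0.533%). It was called for 16 of the 57, of which 13 were falls and 3 rises in DU-145. The 57 were chosen by their change in DU-145, which is part of the difference, so these shares cannot be compared. Among the 16, the largest in size was that of CCDC88C, −1.42 (SE 0.08, adjusted p = 0.00012). TGFBI, SNORD13P1, MARK1, CT83, ZFP28 and ZNF404 were among the 16 too, and in the PC3 lines their levels lay near the lower end of the scale; TGFBI had means of 25.9 to 27.8 there and MARK1 of 21.1 to 21.98. For the 5 of these that fell in DU-145, a fall in PC3-N could not be seen at such levels. Compressed values in the PC3 lines can also narrow the pooled spread of such genes and so lower their p values. SNORD13P1, which rose in DU-145, had a change of 0.00 in PC3-N. ACO1 had a difference of −1.13 (adjusted p = 0.022) and S100A2 one of −1.03 (0.0059), with changes in PC3-N of 0.35 and 0.25 that were not called. TXNIP, far brighter in the PC3 lines (means of 357 to 864), had a change of −0.76 in PC3-N (adjusted p = 0.10) and a difference of −0.79 (0.29), so that a difference between the backgrounds was not called.

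**Figure D4:**
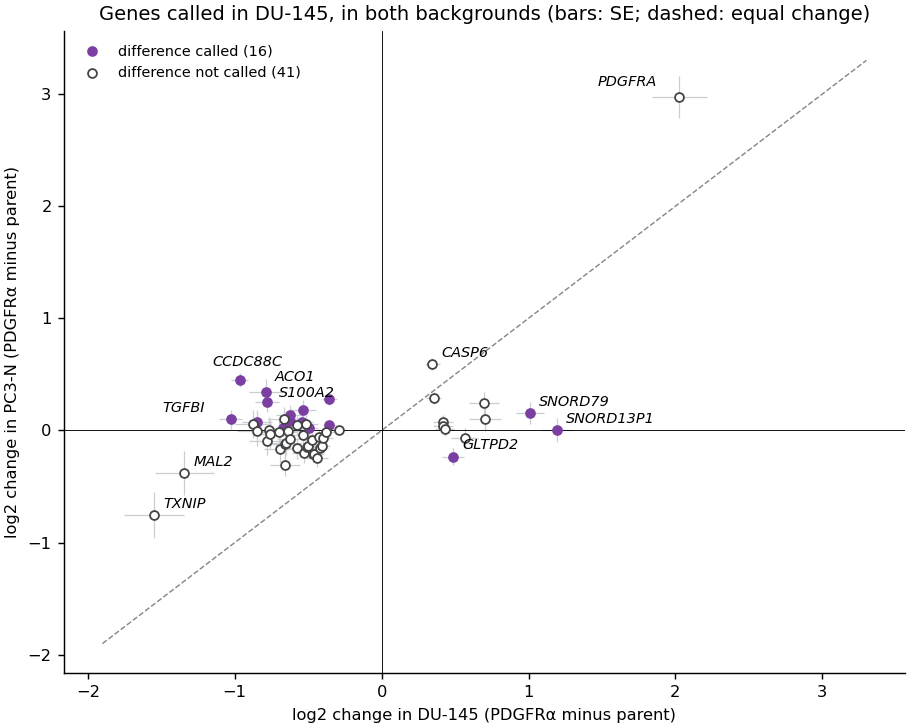
Log2 change with PDGFRα overexpression in DU-145 (horizontal axis) against that in PC3-N (vertical axis), in log2 units, for the 57 genes called in DU-145, with SE as bars, a dashed line of equal change and the 16 genes whose difference was called filled in purple. PDGFRA lies high on both axes (2.03 and 2.97), and CCDC88C lies on opposite sides of 0 (−0.97 and 0.45).

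How many genes passed the threshold changed with the array left out and with how the spread was estimated. The direction of the 57 could change with neither, as their arrays did not overlap and the spread does not enter the log2 change. Quantile normalization of the log2 values gave 80 calls, 29 higher and 51 lower, and kept 46 of the 57. An estimate of the spread that follows the intensity and is robust to outliers gave 100 calls and kept 44.

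**Figure D5:**
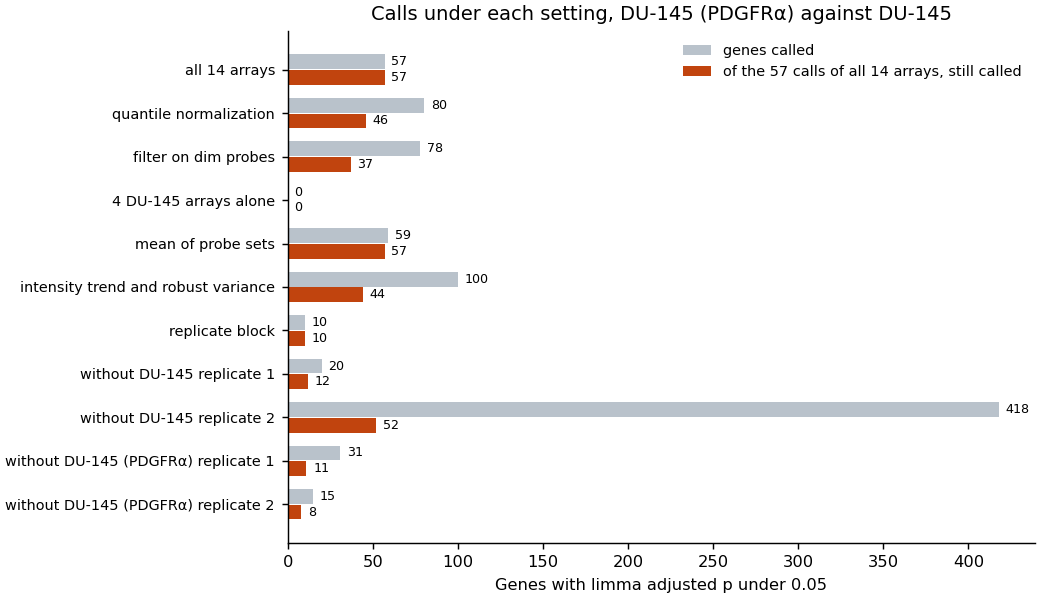
Number of genes with a limma adjusted p under 0.05 (horizontal axis) under each alternative (rows), in grey, and how many of the 57 genes called with all 14 arrays were still called, in red. The count runs from 0 with the 4 DU-145 arrays alone to 418 without DU-145 replicate 2, which kept 52 of the 57.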

How the data were processed

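The deposited values were linear RMA intensities of 28829 probe sets on 14 single-colour arrays, biotin-labelled total RNA of 7 lines. Per the submitters' processing notes the authors used RMA, a method that corrects background, equalises the arrays and summarises probe sets; its version is not given in the sources used here. Intensities ran from 18.5 to 8654, with array medians of 29.9 to 31.6, and are compressed near the lower end. The number of arrays limits the precision.

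Log2 was taken with no pseudocount. Of the probe sets, 19291 had 1 symbol, 1735 several and 7803 none in the platform annotation; 19260 of those with 1 matched RefSeq (GRCh38.p14) by identifier. The probe set with the highest mean stood for each of 682 genes with several, leaving 18372 genes, with no filter on dim probes. A limma 3.58.1 model in R 4.3.3 (lmFit, contrasts.fit, eBayes) gave each of the 7 lines its own mean over all 14 arrays, leaving 7 residual degrees of freedom. Genes were called at a Benjamini-Hochberg adjusted p under 0.05, two-sided, over all genes. A list is described by its counts and median. The fit was tested on simulated data.

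The comparison, the lists and the role groups were chosen with earlier results of these data known. That a list holds a called gene is therefore no result by itself, and the called gene is counted in the list's shares. PDGFRA, IL1B and CXCL6 were always named (the last 2 known from the study's publication), as were called genes, with full values for the 12 largest rises and 16 largest falls where they carried a result, and up to 4 members per list by smallest p. Symbols starting with LOC were left out. Probes of small RNA copies can share targets. Promoters were matched by symbol for 42 of 56 named called genes. Alternatives were quantile normalization, a filter on dim probes, the mean of probe sets, a trended robust spread, the DU-145 arrays alone, a replicate block and leaving out each DU-145 array.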

Additional observations from a re-analysis of the deposited data

Results flagged for a closer look

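For 16 of the genes called in DU-145, and for IL1B and CXCL6, the change with PDGFRα overexpression in DU-145 minus that in PC3-N differed from 0 by the limma test of the difference. On the log2 scale it was −1.42 for CCDC88C, −1.13 for ACO1, −1.13 for TGFBI, −1.03 for S100A2, −0.93 for CT83, −0.76 for NAXE and −0.72 for TRAPPC3. For FHOD3 it was −0.71, for MARK1 −0.70, for COX14 −0.64, for ZFP28 −0.62, for FKBP4 −0.52 and for ZNF404 −0.40. The positive differences were 1.19 for SNORD13P1, 0.86 for SNORD79 and 0.72 for GLTPD2. IL1B (−3.64) and CXCL6 (−1.83) had the largest sizes, and both lay near the lower end of the scale in all 4 DU-145 arrays. No group had the 4 arrays that a check for a single outlying array needs.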

How the results depend on the processing

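PDGFRA rose in every alternative run, by 1.78 to 2.27 without 1 array and by 2.03 in the 4 DU-145 arrays alone, where its adjusted p was 0.466. Calls (57 in the fit reported, 12 higher and 45 lower) numbered 0 (0 and 0) in the 4 arrays alone, 100 (22 and 78) with the trended robust spread, 80 (29 and 51) with quantile normalization, 78 (7 and 71) after the filter on dim probes, and 15 to 418 (4 to 72 higher, 6 to 346 lower) without 1 array. With the mean of probe sets there were 59. The 16 called differences from PC3-N became 26 with the trended robust spread and 10 to 128 without 1 array; the 4 arrays alone cannot give them. Deviations of same-numbered DU-145 and DU-145 (PDGFRα) arrays correlated at 0.036, so replicate numbers did not pair these lines. Over 21 pairs of lines the correlations ran from −0.199 to 0.245, the highest being that of PC3-N with PC3-N(PDGFRα). A replicate block gave 10 calls (3 and 7), all among the 57, and 9 differences. All 57 genes kept their direction under each alternative that tested them, and the filter removed 13. Apart from quantile normalization and the mean of probe sets, no alternative could have reversed a direction, because the arrays did not overlap. The cause of the changed counts was not tested. Signal near the lower end of the scale limits what can be seen, as 55.1% of genes lay under 40.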

Other observations

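Of the genes that differed by at least 2-fold between the lines, 6 were not called. Besides CDH1 and SNORD116-14, these were STC1, a secreted glycoprotein, at 297 and 201 in DU-145 and 142 and 93.6 in DU-145 (PDGFRα) (limma adjusted p = 0.083), and RAB5C, a GTPase of early endosomes, at 118 and 69.0 against 45.3 and 40.2 (0.059). The spliceosomal RNA gene RNU4-1 was at 77.5 and 59.4 against 140.0 and 134 (0.070). The mitochondrial pseudogene MTND2P28 was at 115 and 411 against 796 and 418 (0.29), where the passages differed within both lines.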
